A study of Mus musculus with 10 samples.

Results

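The genes described here are 9 transcription factors listed together for the anterior head and forebrain of the mouse embryo: Otx2, Otx1, Six3, Hesx1, Lhx5, Pax6, Irx3, Foxb1 and Foxd4. They were taken as a list of symbols, without a measured value in the rule, and all 9 had a row among the 20006 listed genes. RNA-seq of whole embryos at embryonic day 7.5, during gastrulation, gave their levels. The groups were 5 wild-type (WT) embryos and 5 embryos with the genotype Axin1;Axin2 mutant, whose library names carry the letters DKO. The structure of the alleles, the strain, the litters and any treatment shared by the groups are not stated in the labels, and whole embryos include extra-embryonic tissue.

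As background, the anterior neural plate forms where signals from the anterior visceral endoderm and the axial mesendoderm keep WNT, NODAL and BMP activity low. High WNT activity gives neural tissue a posterior character, and Axin1 and Axin2 are scaffolds of the complex that degrades β-catenin and so restrains this pathway. Otx2 acts earliest, in the epiblast, in the anterior visceral endoderm and then in the forebrain and midbrain territory. Six3, Hesx1, Lhx5 and Pax6 mark forebrain territory, and Irx3 is expressed in neural plate behind the forebrain as well as in mesoderm.

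Libraries held 20744547 to 28505209 reads. Of the 2 genes named in the genotype, 1 separated the groups. Axin1 measured 3551 ± 244.8 scaled counts (read counts divided by 1 size factor per embryo) in WT and 1343 ± 582.9 in mutants (SD, n = 5), and every mutant lay below every WT embryo. Axin2 measured 440.8 ± 43.1 in WT and 447.6 ± 113.6 in mutants (SD, n = 5), with overlap (log2 change −0.01 by limma, SE 0.17, adjusted p = 0.981), so its level does not check the labels. The library labelled mutant 4 stood apart. Its Axin1 level was 65.8% of the WT mean, against a mean of 30.8% in mutants 1, 2, 3 and 5, and it lay between the genotypes on the first principal component, at 16.6, with WT embryos at −73.3 to −51.8 and the other mutants at 62.3 to 78.4. On the second component it lay outside both groups, at −91.3, with WT embryos at −4.45 to 22.5 and the other mutants at −9.69 to 29.3. It was the highest mutant for 8 of the 9 genes described here, and results are given with and without it. The share of all genes with mutant 4 highest was not computed. Because these same values helped to set it apart, leaving it out lowers the spread of the mutants by selection. Fits without it therefore describe the other embryos, and their smaller p-values are not further support. Reads of epiblast, primitive streak, visceral endoderm, trophoblast, allantois and maternal decidua markers were present in both groups, and no listed marker was without reads in either group. At this depth the presence of reads could hardly fail, so it does not check the label of whole embryo. The decidua markers were listed for maternal tissue, and whether their RNA was maternal was not tested.

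Of the 9 genes, 6 were lower in mutants and 0 were higher. Otx2, Six3, Lhx5, Irx3, Foxb1 and Foxd4 fell, out of 8 members tested with limma (adjusted p below 0.05 over the 15429 genes averaging 10 or more scaled counts). Of all genes tested, 13.8% were lower and 11.4% were higher by this rule. All 8 log2 fold changes of the members were negative, so that 0 were higher at an unadjusted p under 0.05, and 0 were higher with edgeR or DESeq2. Their median was −4.88, beside 0.01 over all genes tested. Pax6, with a mean under 10, was not tested. The count of lower members was 7 without mutant 4, 4 with edgeR and 2 with DESeq2. Over all genes, calls in either direction numbered 3877 with limma, 4535 without mutant 4, 3596 with edgeR and 4529 with DESeq2. DESeq2 thus called fewer members than limma while calling more genes. The shares of genes called lower by edgeR and DESeq2 were not computed. Every mutant lay below every WT embryo for 4 members, Otx2, Six3, Foxb1 and Foxd4, a pattern found in 9.97% of the genes tested, while every mutant lay above every WT embryo in 7.14% of genes and 0 members. Mutants 1, 2, 3 and 5 lay below every WT embryo for 8 members, the exception being Otx1, and these include the untested Pax6. The share of all genes with this pattern in these mutants was not computed, so the count is not read as particular to the members. In bulk samples, fewer cells of a type and less RNA per cell cannot be told apart.

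**Figure D1:**
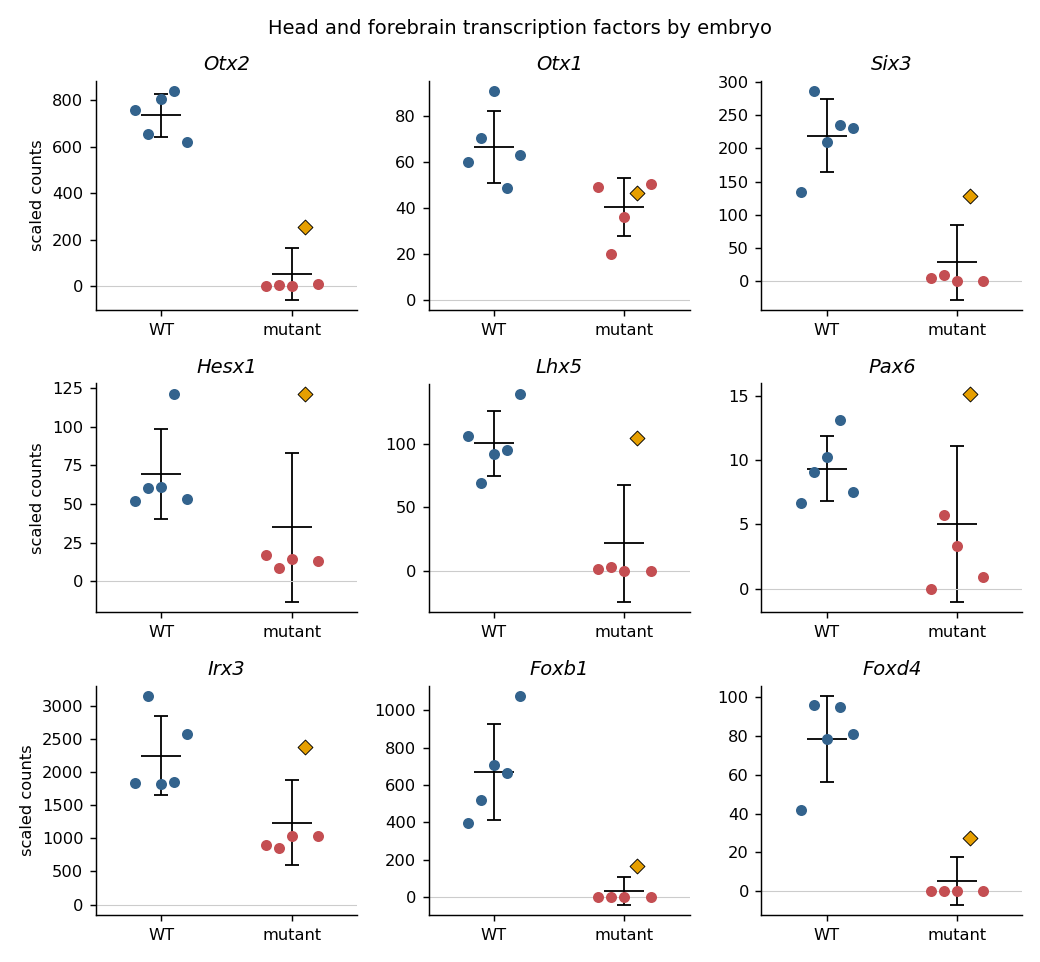
Scaled counts of each gene (linear axes) in 5 WT embryos (blue), mutants 1, 2, 3 and 5 (red) and the library labelled mutant 4 (orange diamond), with the mean and SD of each group in black. For Otx2 the WT embryos sit between 621 and 837 and mutants 1, 2, 3 and 5 between 0 and 10.4, with mutant 4 between them at 252.7.

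Otx2 encodes a homeodomain protein without which the mouse embryo forms no forebrain or midbrain. It lies on chromosome 14, from 48657677 to 48673819 on the minus strand (mm10), and its exons overlap the antisense RNA Otx2os1. It measured 755, 654, 804, 837 and 621 scaled counts in WT 1 to 5, and 1.89, 4.79, 0, 252.7 and 10.4 in mutants 1 to 5. The groups did not overlap, and among the mutants a single library, mutant 4, held 250 of the 268 reads. On the log2(scaled count + 1) scale the change of Otx2 was −6.40 (limma, SE 1.10, adjusted p = 0.00177). The added 1 shrinks changes at low levels. As a difference of mean log2 values, however, this change gives the mutants near 0 more weight than the linear means do, and it is larger than the fall in those means. The linear means were 734 ± 93.7 in WT and 53.96 ± 111.2 in mutants (SD, n = 5), or 7.35% of WT. Without mutant 4 the limma change was −7.62 (adjusted p = 3.22e-06). With edgeR and DESeq2 on all embryos the change was −3.77, which matches the ratio of the linear means. The call held in each of 19 alternatives (adjusted p = 3.22e-06 to 0.0287).

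Promoter sequences are shown for Otx2, Six3 and Foxd4, the genes without overlap between the groups for which RefSeq's promoter table (build GRCm38.p6) had an entry. The table holds windows from 250 bases before to 50 after each start and matched 6 of the 9 genes, with 10 windows. Otx2 has 4 windows, of which 2 held a motif match and are printed, chr14:48665060-48665359 and chr14:48667595-48667894 on the minus strand. Six3 is at chr17:85620584-85620883 on the plus strand, and Foxd4 at chr19:24900967-24901266 on the minus strand. Capitals mark matches, on both strands, to TAATCC, which reads GGATTA on the other strand, the bicoid-type motif that OTX proteins bind, and to TAATTA, a core shared by many homeodomain proteins. No 2 matches overlapped in these windows.
Otx2 window with 4 matches: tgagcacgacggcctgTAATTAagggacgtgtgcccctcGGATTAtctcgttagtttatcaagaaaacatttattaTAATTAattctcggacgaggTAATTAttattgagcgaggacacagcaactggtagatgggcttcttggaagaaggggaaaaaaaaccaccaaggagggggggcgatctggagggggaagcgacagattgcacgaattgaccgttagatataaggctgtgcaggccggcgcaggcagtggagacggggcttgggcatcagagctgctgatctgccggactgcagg
Otx2 window with 1 match: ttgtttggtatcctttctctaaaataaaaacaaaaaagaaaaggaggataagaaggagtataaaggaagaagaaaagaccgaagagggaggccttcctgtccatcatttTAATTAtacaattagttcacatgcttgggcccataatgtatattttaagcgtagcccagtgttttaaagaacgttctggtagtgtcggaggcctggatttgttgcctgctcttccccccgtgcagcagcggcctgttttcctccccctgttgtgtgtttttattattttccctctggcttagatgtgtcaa
Six3: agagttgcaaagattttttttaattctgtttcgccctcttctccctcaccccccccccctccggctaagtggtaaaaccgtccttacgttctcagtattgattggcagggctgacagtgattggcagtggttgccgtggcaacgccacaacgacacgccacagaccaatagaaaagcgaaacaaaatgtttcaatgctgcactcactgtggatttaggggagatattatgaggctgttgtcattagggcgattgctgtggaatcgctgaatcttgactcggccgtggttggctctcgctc
Foxd4: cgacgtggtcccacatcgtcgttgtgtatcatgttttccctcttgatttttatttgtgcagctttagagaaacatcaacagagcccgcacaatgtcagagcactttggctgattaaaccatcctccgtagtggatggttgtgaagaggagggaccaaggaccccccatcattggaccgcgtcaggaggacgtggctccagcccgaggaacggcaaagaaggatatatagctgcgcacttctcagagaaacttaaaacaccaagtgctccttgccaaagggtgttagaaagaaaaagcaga
The first Otx2 window held 1 bicoid-type match and 3 TAATTA matches. Over all 32851 windows of the table, 7.06% held the bicoid-type motif and 5.29% held TAATTA. The TCF/LEF core CTTTGA, which reads TCAAAG on the other strand, was found in 5257 of these windows and had no match in the 10 windows of these genes, which says only that these letters are not in these windows.

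Otx1, the paralogue of Otx2 with later roles in the cerebral cortex, showed a smaller difference. It lies on chromosome 11 (21994764 to 22002897, minus strand). It measured 60.2, 70.4, 90.8, 48.5 and 62.9 scaled counts in WT 1 to 5, and 49.1, 20.1, 35.8, 46.5 and 50.3 in mutants 1 to 5. The groups overlapped, with mutants 1 and 5 inside the WT range, and mutant 4 did not stand apart here. Its log2 change was −0.75 by limma (SE 0.30, adjusted p = 0.0862), −0.82 without mutant 4, and it passed the threshold in none of 19 alternatives (adjusted p = 0.069 to 0.175). The difference between the 2 paralogues was itself tested, as the per-embryo difference of Otx2 and Otx1 in log2(scaled count + 1). That difference was 3.46 ± 0.39 in WT and −2.19 ± 2.92 in mutants (SD, n = 5), below every WT embryo in 5 of 5 mutants. The change of −5.65 had a two-sided exact permutation p = 0.00794, the smallest that 5 against 5 embryos can give, and an adjusted p = 0.0119 over the 3 gene pairs compared. Without mutant 4 it was −6.80 (exact permutation p = 0.0159).

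The forebrain genes Six3 and Lhx5 were near or at the floor in mutants 1, 2, 3 and 5. Six3, a homeodomain factor needed for the rostral forebrain and a repressor of Wnt1 there, lies on chromosome 17 (85613608 to 85629302, plus strand), and its exons overlap the antisense gene Six3os1. It measured 133.7, 285.8, 210.1, 235.4 and 230.9 scaled counts in WT 1 to 5, and 4.72, 8.62, 0, 128.4 and 0 in mutants 1 to 5. Mutant 4 was just below the lowest WT embryo, WT 1. Six3 fell, with a log2 change of −5.18 by limma (SE 1.08, adjusted p = 0.00499), or −6.30 without mutant 4. It was called neither by edgeR (−2.96, adjusted p = 0.0653) nor by DESeq2 (−2.95, adjusted p = 0.101). Over its alternatives the adjusted p ran from 3.82e-05 to 0.101.

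Lhx5, a LIM-homeodomain factor of the rostral forebrain, lies on chromosome 5 (120431699 to 120441223, plus strand), where its exons overlap the antisense gene Gm27199. It measured 106.2, 69.4, 92.0, 95.0 and 138.9 scaled counts in WT 1 to 5, and 1.89, 2.87, 0, 104.1 and 0 in mutants 1 to 5. Mutant 4 was inside the WT range, at 103.8% of the WT mean, while the 4 other mutants held 5 reads in all. Lhx5 fell, with a log2 change of −4.59 by limma (SE 1.04, adjusted p = 0.00789), or −5.76 without mutant 4. It was not called by edgeR (−2.21, adjusted p = 0.174), and DESeq2 gave a log2 fold change of −2.20 but no p-value. Over the alternatives with a p-value, the adjusted p ran from 7.6e-06 to 0.174. Its paralogue Lhx1, which acts in the head organiser, fell by 2.14 (SE 0.28, adjusted p = 0.000366), and mutant 4 (152.6 scaled counts) lay below every WT embryo (291 to 656). The per-embryo log2 difference of Lhx5 and Lhx1 changed by −2.45 (exact permutation p = 0.0635, adjusted p = 0.0635), in 4 of 5 mutants below every WT embryo, and by −3.46 without mutant 4 (exact permutation p = 0.0159).

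Hesx1 and Pax6, the other forebrain members, were lower in 4 mutants but not in mutant 4. Hesx1, a paired-like homeodomain repressor of forebrain and pituitary, lies on chromosome 14 (26994416 to 27002329, plus strand). It measured 51.8, 60.4, 61.3, 121.2 and 53.5 scaled counts in WT 1 to 5, and 17.0, 8.62, 14.6, 121.3 and 13.3 in mutants 1 to 5. WT 4 and mutant 4 were both about 2 times as high as the other WT embryos. With all embryos its log2 change was −1.63 by limma (SE 0.59, adjusted p = 0.0609). The fit without mutant 4, which leaves out the highest mutant, gave −2.26 for Hesx1 (SE 0.33, adjusted p = 0.000482). Over its alternatives the adjusted p ran from 0.000482 to 0.301. Pax6, a paired-box factor of eye and forebrain (chromosome 2, 105668900 to 105697364, plus strand), was scarcely expressed at this stage. It measured 6.69, 9.06, 10.2, 13.1 and 7.51 scaled counts in WT 1 to 5, and 0, 5.74, 3.36, 15.2 and 0.95 in mutants 1 to 5. These values rest on 47 reads in WT and 25 in mutants, and 3 reads correspond to 2.51 to 3.41 scaled counts, so mutants 1, 3 and 5 were at or near this floor. With every listed gene tested, the log2 fold change of Pax6 was −1.36 (adjusted p = 0.169).

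The forkhead genes Foxb1 and Foxd4 had no reads at all in mutants 1, 2, 3 and 5. Foxb1 marks the early neural plate and later the hypothalamus, and lies on chromosome 9 (69757710 to 69760940, minus strand), where the antisense gene B230323A14Rik overlaps it. It measured 395, 518, 707, 663 and 1075 scaled counts in WT 1 to 5, and 0, 0, 0, 163.7 and 0 in mutants 1 to 5. The WT embryos held 3412 reads and mutant 4 held 162. Without mutant 4, the WT mean was at least 902-fold higher than the mutant mean (floor of 3 reads over the 4 libraries). Foxb1 fell, with a log2 change of −7.84 by limma (SE 1.22, adjusted p = 0.00103) that was −9.31 without mutant 4 and −5.99 with a pseudocount of 5 in place of 1. It was −4.37 with edgeR (adjusted p = 0.0276), and DESeq2 gave −4.36 (adjusted p = 0.116, no call). Over its alternatives the adjusted p ran from 1.81e-08 to 0.116.

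Foxd4, a forkhead factor known to promote neural fate in mouse embryonic stem cells, is a gene of 1 exon on chromosome 19 (24899236 to 24901197, minus strand). It measured 41.8, 95.6, 78.4, 95.0 and 80.7 scaled counts in WT 1 to 5, and 0, 0, 0, 27.3 and 0 in mutants 1 to 5. The groups did not overlap, and without mutant 4 the WT mean was at least 105-fold higher (floor of 3 reads over the 4 libraries). Foxd4 fell, with a log2 change of −5.29 by limma (SE 0.85, adjusted p = 0.00126), or −6.25 without mutant 4. DESeq2 gave −3.84 (adjusted p = 0.0705) and did not call it, and over its alternatives the adjusted p ran from 1.08e-06 to 0.0705.

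Irx3, an Iroquois homeodomain factor, retained much of its expression. It lies on chromosome 8 (91798525 to 91802067, minus strand) and overlaps the antisense gene Irx3os. It measured 1841, 3141, 1823, 1851 and 2570 scaled counts in WT 1 to 5, and 901, 846, 1035, 2370 and 1027 in mutants 1 to 5. Mutants 1, 2, 3 and 5 had 42.4% of the WT mean and mutant 4 had 105.6%. Irx3 fell, with a log2 change of −0.94 by limma (SE 0.26, adjusted p = 0.0214), or −1.204 without mutant 4. This call was lost without WT 2 (adjusted p = 0.051), WT 5 (0.0579), mutant 1 (0.0534) or mutant 2 (0.0562), and the adjusted p over all alternatives ran from 0.000309 to 0.0579. Irx5, a gene of the same Iroquois cluster, fell by 2.85 (SE 0.37, adjusted p = 0.000314), from 962 ± 189.4 to 156.7 ± 114.6 scaled counts (SD, n = 5), below every WT embryo in 5 of 5 mutants. The log2 difference of Irx3 and Irx5 was 1.21 ± 0.19 in WT and 3.12 ± 0.48 in mutants (SD, n = 5). Its change of 1.91 had an exact permutation p = 0.00794 (adjusted p = 0.0119), and was 2.00 without mutant 4 (exact permutation p = 0.0159).

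**Figure D2:**
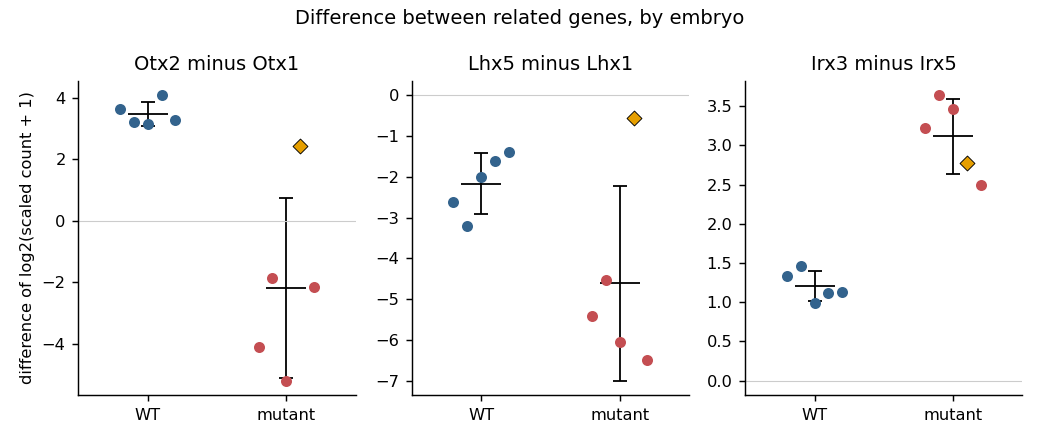
Per-embryo difference of log2(scaled count + 1) between a member and a related gene, in WT (blue), mutants 1, 2, 3 and 5 (red) and the library labelled mutant 4 (orange diamond), with group mean and SD. The Otx2 minus Otx1 difference is 3.46 on average in WT and −2.19 in mutants, and for Lhx5 minus Lhx1 mutant 4 lies above the WT embryos.

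Mutant 4 did not hold a fixed share of WT expression across the 9 genes. Its level relative to the WT mean was 24.4% for Foxb1, 34.4% for Otx2, 34.9% for Foxd4, 58.6% for Six3 and 69.8% for Otx1. It was 103.8% for Lhx5, 105.6% for Irx3, 162.6% for Pax6 and 174.1% for Hesx1. It was below the lowest WT embryo for 5 genes, inside the WT range for 2 and above the highest WT embryo for 2, by a narrow margin for Hesx1. In mutants 1, 2, 3 and 5 the mean ran from 0 (Foxb1 and Foxd4) and 0.583% (Otx2) to 42.4% (Irx3) and 58.3% (Otx1) of the WT mean. Lhx5 and Irx3, 2 of the 6 genes called lower, had mutant 4 inside the WT range, as did 18.9% of all genes called lower.

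**Figure D3:**
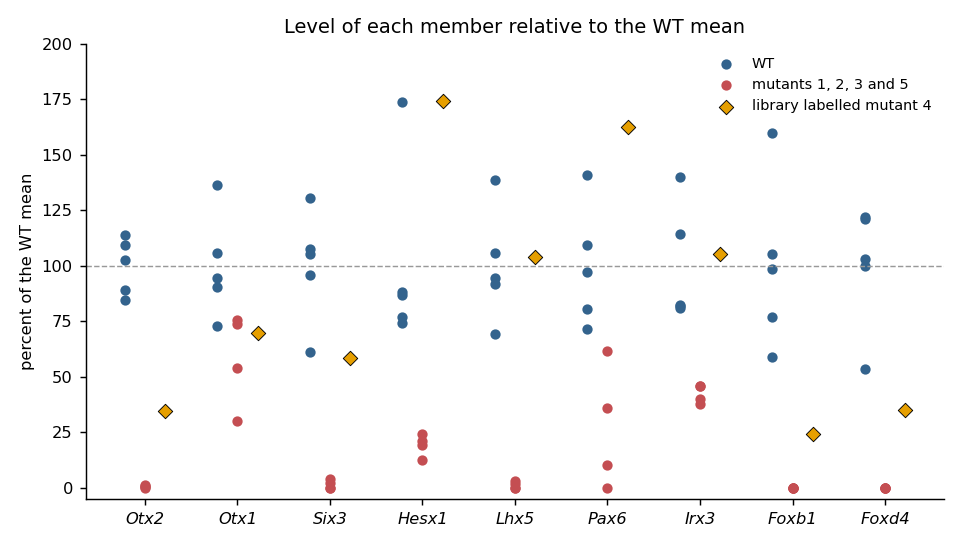
Level of each gene in each embryo as a percent of its WT mean (dashed line at 100), for WT (blue), mutants 1, 2, 3 and 5 (red) and the library labelled mutant 4 (orange diamond). Mutant 4 ranges from 24.4% for Foxb1 to 174.1% for Hesx1, whereas mutants 1, 2, 3 and 5 are at or near 0 for Otx2, Six3, Lhx5, Foxb1 and Foxd4.

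Among WT embryos, levels per kilobase of annotated exon (all isoforms merged) gave an order in steps. Irx3 was highest, at 813 ± 214.7 scaled counts per kilobase (SD, n = 5), above every embryo's value of the next gene. Foxb1 (225.1 ± 86.1) and Otx2 (173.9 ± 22.2) followed and overlapped each other. Hesx1 (55.8 ± 23.3), Six3 (40.2 ± 10.2), Foxd4 (39.9 ± 11.2) and Lhx5 (37.3 ± 9.44) overlapped among themselves and lay below Otx2 in every embryo. Otx1 (12.3 ± 2.89) and Pax6 (0.80 ± 0.22) each lay apart at the bottom. Otx2 varied least between WT embryos, with a coefficient of variation of 12.8%, against 41.8% for Hesx1 and 38.2% for Foxb1. No WT embryo was highest throughout: WT 2 was highest for Six3, Irx3 and Foxd4, WT 4 for Otx2, Hesx1 and Pax6, and WT 5 for Lhx5 and Foxb1, while WT 1 was lowest for 5 genes.

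**Figure D4:**
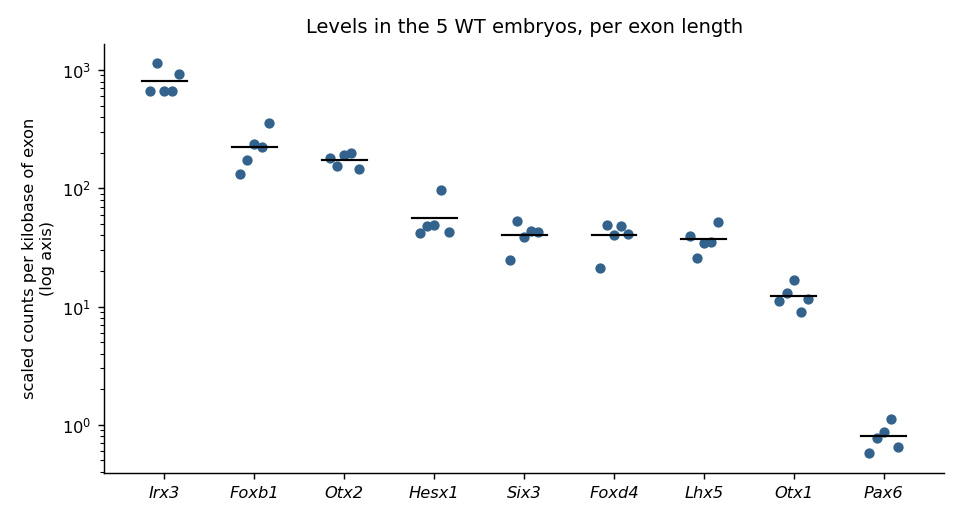
Scaled counts per kilobase of exon (log axis) of the 9 genes in the 5 WT embryos (points), with the mean as a line, ordered by mean. Irx3 (mean 813) and Pax6 (mean 0.80) stand at the ends, and Hesx1, Six3, Foxd4 and Lhx5 overlap.

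The fitted changes depended on the test more for the genes near or at 0 in 4 mutants than for Irx3 and Otx1. With limma on log2 values, Otx2, Six3, Lhx5, Foxb1 and Foxd4 had log2 fold changes of −4.59 to −7.84, and with edgeR −2.21 to −4.37. For Irx3 (−0.94 and −0.87) and Otx1 (−0.75 and −0.72) both tools gave close values. Without mutant 4, limma called 7 of the 8 tested members, Otx1 being the exception, where 16% of all genes tested were lower.

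**Figure D5:**
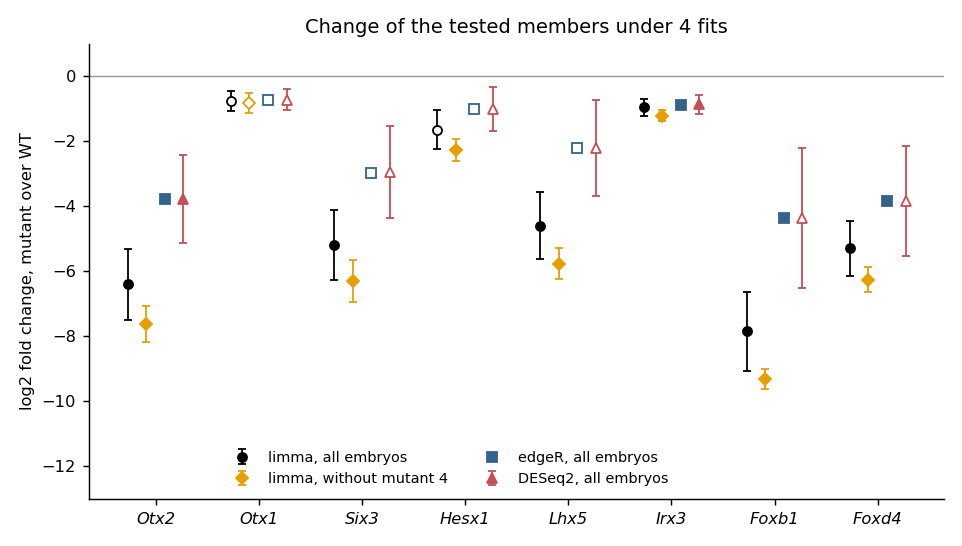
Log2 fold change (mutant over WT) of the 8 tested genes with limma on all embryos (black), limma without the library labelled mutant 4 (orange), edgeR (blue) and DESeq2 (red); bars are SE where the tool gives one, and filled symbols passed the adjusted threshold. Hesx1 is called only in the fit without mutant 4 among these 4, and Otx1 in none.

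Antisense and overlapping genes of the members were low. Six3os1 measured 38.5, 24.2, 43.2, 15.2 and 19.7 scaled counts in WT 1 to 5 and 0, 9.57, 0, 13.1 and 0 in mutants 1 to 5, with no overlap, and its log2 change by limma was −3.32 (SE 0.82, adjusted p = 0.0125). The value for Irx3os was −1.26, not past the threshold (SE 0.46, adjusted p = 0.0621). Of these 2 genes, edgeR called 0, DESeq2 called 1 and limma without mutant 4 called 2. Otx2os1 (at most 8.08 scaled counts in any embryo) and B230323A14Rik (at most 10.1) were under the level tested. The libraries do not record strand, so reads of overlapping exons cannot be assigned to either gene.

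The genes whose profile over the 10 embryos was most like that of Otx2 were Galnt16, Foxc2, Mcf2, Pcdh8 and St8sia3. Likeness was the root mean square difference of log2 values, each gene centred on its WT mean, among 11351 genes with a mean of at least 50, and it was 0.71, 0.88, 0.90, 0.96 and 1.197 in this order. Galnt16, a glycosyltransferase, had 167.2 to 284.4 scaled counts in WT, 110.2 in mutant 4 and 0 to 1.91 in the other mutants. Foxc2, a forkhead factor of paraxial mesoderm, had 712 to 1091 in WT, 372.9 in mutant 4 and 1.12 to 18.9 in the others. The nearest genes to Six3 were Lhx5 (0.70) and Ntn1, which encodes the guidance molecule netrin-1 (0.99), and those to Lhx5 were Ntn1 (0.51) and the segmentation clock gene Hes7 (0.63). Nearest to Foxb1 were Mcf2 (1.01) and Otx2 (1.41), to Foxd4 the NOTCH ligand Dll3 (0.53) and the protocadherin Pcdh19 (0.65), and to Irx3 the genes Fgd5 (0.20) and Kank1 (0.20). Genes with a small change have small distances, so the distances are not compared between members.

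Of 10 tested paralogues, 5 fell, among them Six5, Lhx1, Irx1 and Irx5, 0 rose with limma (also 0 with edgeR and DESeq2, and 0 at an unadjusted p under 0.05), and the median log2 fold change was −0.83 (all genes, 0.01). Six5 (−1.25, SE 0.24, adjusted p = 0.00364) lay below every WT embryo in each mutant. Six2 (0.03, adjusted p = 0.958), Irx2 (−0.18, adjusted p = 0.687) and Irx4 (−0.14, adjusted p = 0.675) did not pass the threshold. Foxd3, an epiblast and neural crest factor under the level tested, had 66.9 scaled counts in WT 1, 1.01 to 9.08 in the other WT embryos and at most 1.01 in mutants.

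Of 8 tested forebrain and eye field factors outside the 9 genes, Rax, Sp8, Dmbx1 and Tcf7l1 fell and Nr2f2 rose, with a median of −1.05. Rax, the eye field homeodomain factor, measured 24.2, 55.4, 14.8, 20.2 and 11.3 scaled counts in WT 1 to 5, and 0, 0, 0, 14.1 and 0.95 in mutants 1 to 5. It fell by 3.52 (SE 0.78, adjusted p = 0.00697), with mutant 4 inside the WT range. Tcf7l1, a repressor of WNT target genes needed for the forebrain, fell by 1.52 (SE 0.21, adjusted p = 0.000487), and Sp8 changed by −2.57 (SE 0.39, adjusted p = 0.000865). Nr2f2, a nuclear receptor, rose by 1.203 (SE 0.30, adjusted p = 0.0136). Of these 4 falls, 3 were called by edgeR and 3 by DESeq2.

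Genes listed for midbrain and hindbrain moved in both directions. RNA of whole embryos does not show in which tissue these changes lay, so they are not read as changes of a brain region. Of 8 tested, Gbx2 and Hoxb1 fell and 2 rose, among them Fgf8, with a median of −0.18. Gbx2, which sets the posterior border of Otx2 expression, fell by 1.38 (SE 0.44, adjusted p = 0.0384), from 399 to 1451 scaled counts in WT embryos to 132.2 to 605 in mutants, with overlap. The number of genes called lower in this list was 1 instead of 2 without WT 4, WT 5, mutant 1, mutant 2 or mutant 3, and with no intensity trend, and 3 without mutant 4. Hoxb1 fell by 2.78 (SE 0.48, adjusted p = 0.00168) and Fgf8 rose by 0.89 (SE 0.24, adjusted p = 0.0193). En1 (0.94, adjusted p = 0.136) and En2 (0.17, adjusted p = 0.742) did not pass the threshold.

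Of 10 pan-neural ectoderm factors, 5 fell, among them Sox2, Sox3, Zic2 and Zic5, and Zic1 rose, with a median of −1.10. Sox3 fell by 1.83 (SE 0.41, adjusted p = 0.00742), whereas Sox2, which extra-embryonic ectoderm expresses as well, fell by 0.53 (SE 0.17, adjusted p = 0.0364). Zic5 fell by 1.64 (SE 0.13, adjusted p = 1.36e-05). Zic1 had 0 scaled counts in WT 1 to 4 and 1.88 in WT 5, but 13.2, 14.4, 21.3, 38.4 and 26.6 in mutants 1 to 5, and rose by 4.16 (SE 0.52, adjusted p = 0.000234). Sox1, an early neural plate marker, was low, with 2.51, 7.04, 11.4, 33.3 and 22.5 in WT 1 to 5 and 0, 1.91, 0, 37.4 and 0.95 in mutants 1 to 5 (log2 fold change −2.07, adjusted p = 0.146).

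Genes of the head organiser tissues fell in part. Of 18 tested, 9 fell, 1 rose and 8 did not pass the threshold, with a median of −1.13. Those that fell with the smallest adjusted p were the BMP antagonist Chrd (−2.44, SE 0.29), Lhx1, the NODAL antagonist Cer1 (−6.04, SE 0.80) and the NODAL cofactor Foxh1 (−1.56, SE 0.21). Prdm1, a repressor expressed in axial mesendoderm and germ cell precursors, rose by 1.79 (SE 0.20, adjusted p = 0.00013). Dkk1 (0.59, adjusted p = 0.0509), Hhex (0.28, adjusted p = 0.34), Gsc (0.57, adjusted p = 0.378) and Foxa2 (−0.31, adjusted p = 0.129) did not pass it. Without mutant 4, 9 fell and 3 rose, and without WT 2 or WT 3, 2 rose.

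Markers of other cell types moved with the genotype as well. Of 7 epiblast markers 6 fell, and their summed level was 40561 to 55420 scaled counts in WT, 14014 to 17935 in mutants 1, 2, 3 and 5 and 15691 in mutant 4. Of 5 anterior visceral endoderm markers, 4 were tested and Cer1 fell. The other 3 had positive log2 fold changes that did not pass the threshold, and the median was 0.43. Sums were 2594 to 3903 in WT and 1461 to 2119 in mutants, with Cer1 alone averaging 1889 in WT and 61.9 in mutants. Lefty1, not tested, had 0 to 1.01 scaled counts in WT embryos and 0, 0, 6.72, 12.1 and 1.90 in mutants 1 to 5. Of 7 streak and nascent mesoderm markers 4 fell and 1 rose (sums of 6278 to 11949 and 3259 to 10567). Of 7 visceral endoderm markers 1 rose, with sums of 95430 to 130706 in WT, 140879 to 146951 in mutants 1, 2, 3 and 5 and 80796 in mutant 4. None of 6 trophoblast markers was called by limma, and mutant 4 (40044) lay above the other mutants (19044 to 22325) and WT (13790 to 24334). Of 5 decidua markers 2 rose (7875 to 10421 in WT, 13263 to 25954 in mutants), of 5 allantois markers 2 rose (12778 to 17030 and 16572 to 27179), and of 3 neural ectoderm markers 2 fell (977 to 1678 and 384 to 901). The part of these shifts in the changes of the 9 genes was not tested.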

How the data were processed

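RNA was taken from whole embryos and amplified with the SMART-Seq v4 kit before library preparation with the KAPA Hyper Prep kit, per the labels' protocols. Per the submitters' processing notes, the tools were cutadapt 1.6, STAR 2.5.0a, HTSeq 0.5.3 and DESeq, with build mm10. The deposited signal is the authors' read count per gene divided by 1 size factor per embryo (0.881 to 1.196). Every value was a whole multiple of 1 step per embryo within 0.01 reads (100% of values), which gave back whole reads, also in the 3 embryos whose step lies near 1. The number of columns left out was 0.

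The 15429 of 20006 genes averaging 10 or more scaled counts were compared as log2(scaled count + 1) with limma 3.58.1 (intensity trend) in R 4.3.3, and p-values were adjusted by Benjamini-Hochberg over all of them at 0.05. It called 3877 genes (25.1%). Recovered reads were tested with edgeR 4.0.16 (quasi-likelihood) and DESeq2 1.42.0. A set of 3 gene pairs were compared with a two-sided exact permutation test over 252 assignments. Other alternatives were TMM scaling, pseudocounts of 0.5 and 5, no filter, a mean of at least 50, no trend, a replicate block and leaving out each embryo. Coordinates and exon lengths come from GENCODE M21 (GRCm38, the assembly of mm10), matched for 19935 genes. Intervals and floors cover counting error only, since no molecular identifiers were used.

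The named genes are the 9 members, Axin1 and Axin2, the 5 genes nearest to Otx2 and 2 nearest to each other called member, overlapping genes, and from each list up to 4 members with the smallest adjusted p and those that moved the other way; other genes named were chosen after their values were seen. Members and lists were chosen with earlier results of these data known. Values of some genes in these lists are not reported here.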

Additional observations from a re-analysis of the deposited data

Results flagged for a closer look

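Of the 8 values that stood far from the rest of their group 7 belonged to the library labelled mutant 4. In each, the gap to the nearest of the other 4 embryos, divided by the range of the group, was over 0.71. They were Otx2 (252.7 scaled counts), Six3 (128.4), Hesx1 (121.3), Lhx5 (104.1), Irx3 (2370), Foxb1 (163.7) and Foxd4 (27.3), each above the other 4 mutants. The remaining value was Hesx1 in WT 4 (121.2), above the other 4 WT embryos. Chance flags about 1 in 20 groups when they are independent, and 18 groups were examined. Values of different genes in 1 library are not independent, and mutant 4 stood apart over all tested genes on the second principal component. The number of flags is therefore not set against chance. The share of all genes flagged in mutant 4 was not computed. Axin1 in mutant 4 was 2336 scaled counts, against 820 to 1319 in the other mutants; its part in these values was not tested.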

How the results depend on the processing

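Leaving out 1 embryo at a time gave 5 to 7 members called lower, 0 called higher, and 2505 (without WT 5) to 4535 (without mutant 4) genes called in all. DESeq2 called 2 members lower, Otx2 and Irx3, and gave no p-value for Hesx1 and Lhx5. The cause was not tested. No member's log2 fold change reversed in any alternative, and the calls for Otx2 and Otx1 did not change in any of them. With the replicate number as a block, 7 members were called lower, Hesx1 being added (adjusted p = 0.0241), and 3253 genes in all. Same-numbered embryos did not deviate together (correlations of −0.08 to 0.08), so the numbers are not taken to pair the embryos. With the same pairing, the changes of Otx2 against Otx1 (−5.65) and of Irx3 against Irx5 (1.91) had an exact p = 0.0625, the smallest that 5 pairs can give. Leaving out 1 embryo, the Otx2 and Otx1 change ran from −6.80 to −4.90, the Irx3 and Irx5 change from 1.78 to 2.07, and the Lhx5 and Lhx1 change from −3.46 to −1.97, past the threshold only without mutant 4. Foxd4 and Pax6 drop out with a minimum mean of 50. At this depth, Pax6 and the antisense genes rest on few reads.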

Other observations

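Fezf1, a forebrain zinc finger gene under the level tested, had 10.0, 5.03, 3.41, 0 and 2.82 scaled counts in WT 1 to 5, 22.2 in the library labelled mutant 4 and 0 in the other mutants. Like Hesx1, Pax6 and Sox1, it was higher in that library than in any WT embryo. So were other listed genes, among them Six2, Irx2, Foxd1 and Pax2, and the share of all genes was not computed. Dmbx1, a homeodomain gene of forebrain and midbrain, had 9.19, 15.1, 15.9, 66.7 and 54.4 in WT 1 to 5, with WT 4 and WT 5 high, and 29.3 in mutant 4 against 0 to 0.957 in the other mutants.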
